A study of Mus musculus with 60 samples.

Results

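The heat shock chaperones and cochaperones are the genes whose mouse symbols belong to the HSF1, HSPA, HSPB, HSPD, HSPE, HSPH, HSP90, DNAJA, DNAJB, DNAJC, BAG and CCT/TCP1 families. They were picked by symbol from the table of normalised read counts, and no measured value enters that rule. The families themselves were chosen with earlier results of these data known. The table held 81 such genes among 18088, and all 81 reached a normalised read count of at least 10 in at least 5 libraries, the filter that left 17807 genes for testing. By role they were HSF1 itself, 10 members of the HSP70 family, 3 of the HSP110 family, 3 HSP90 proteins and 40 J-domain proteins. The J-domain proteins were 4 of class A, 11 of class B and 25 of class C. The rest were 6 BAG proteins, the 8 subunits of the chaperonin CCT, 3 mitochondrial chaperones and 7 genes with an Hspb symbol. These 7, Hspb11 among them, are called small heat shock proteins here by symbol alone.

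The samples were prefrontal cortex from C57BL/6J mice on postnatal day 25, sequenced as 60 libraries of polyadenylated RNA. The mice were wild type (WT) or Chd8+/N2373K heterozygotes (Het), which carry an N2373K allele of the chromatin remodeler gene Chd8. Each genotype received vehicle, fluoxetine (a serotonin reuptake inhibitor) or lithium (a mood stabilizer), males and females apart, which gave 12 groups of 5 libraries. Treatment came through the milk of the mother from postnatal day 3 to 24, for 3 weeks. The sources used here do not say which mice were littermates, so p-values measure the spread between these libraries, and a litter and its treatment cannot be told apart.

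Recovered reads per library ran from about 24050000 to 31650000. Chd8 itself read 3094 ± 91.7 normalised counts in the 30 WT libraries (SD, range 2951 to 3285) and 2671 ± 134 in the 30 Het libraries (range 2421 to 3072), so the 2 genotypes differed in level but overlapped at the edge. Marker levels of neighbouring tissue differed between libraries. The summed level of 14 olfactory bulb markers ran from 3325 to 42155 normalised counts, with Tbx21 at 0 in 3 libraries and Eomes and Igfbpl1 at 0 in 1 each. The sum of 10 oligodendrocyte and myelin markers ran from 34024 to 227895. In bulk tissue, fewer cells of a type and less RNA per cell cannot be told apart.

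Molecular chaperones keep proteins folded. HSF1 is the transcription factor that switches on heat shock genes by binding arrays of short GAA and TTC units. HSP70 proteins bind unfolded stretches in a cycle driven by ATP. J-domain proteins deliver the clients and start the hydrolysis, and BAG and HSP110 proteins exchange the nucleotide to release them. HSP90 matures kinases and steroid receptors, CCT folds actin and tubulin, and HSPD1 with HSPE1 forms the folding chamber of mitochondria. In neurons the J-domain proteins DNAJC5 (cysteine string protein) and DNAJC6 (auxilin) serve synaptic vesicle exocytosis and clathrin uncoating.

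HSF1 binds the heat shock element, and the 3 stretches shown here are those near starts of these genes that hold it in a strict form. RefSeq promoter windows on GRCm38.p6, from 250 bases before to 50 bases after a transcription start, were found for 66 of the 81 genes. The motif GAANNTTCNNGAA was searched on both strands, and overlapping matches were merged in the printed stretch. It was present in windows of 4 of the 66 genes (6.06%) and in those of 179 of all 27025 genes with a window (0.662%). The 4 genes were Hspd1, Hspe1, Dnajb6 and Hsph1. Below, 30 bases around each match are written on the strand of the gene, with the GAA and TTC units in capitals.
Hspe1: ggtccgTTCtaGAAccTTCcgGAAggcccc
Dnajb6: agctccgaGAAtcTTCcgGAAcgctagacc
Hsph1: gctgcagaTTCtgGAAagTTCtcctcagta
The first stretch lies at chr1:55088053-55088082 on the plus strand, 89 bases before the start of Hspe1, and holds 4 alternating units. It serves as the window of Hspd1 as well, because the 2 genes are transcribed away from each other from starts 216 bases apart. The second lies at chr5:29735844-29735873 on the plus strand, 46 bases before the upstream start of Dnajb6. The third lies at chr5:149636279-149636308 on the minus strand, inside the first exon of Hsph1, where the match begins 15 bases after the downstream start. No strict match was found in the windows of Hspa1a, Hspa1b, Dnajb1, Bag3 or Dnajb5, which says only that these letters are not in those windows.

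The family was dominated by a few constitutive chaperones. Per kilobase of exon, averaged over the 60 libraries, the highest levels were 11999 normalised counts for Hsp90ab1 and 11970 for Hspa8, the constitutive HSP70 of the cytosol. Hsp90aa1 followed at 8251. The endoplasmic reticulum pair Hsp90b1 and Hspa5 stood at 2345 and 1998, auxilin (Dnajc6) at 1816, Hspd1 at 1773 and Dnajc5 at 1660. Hspa8, Hsp90ab1 and Hsp90aa1 together made 38.0% of the summed counts of the 81 genes. The stress-inducible Hspa1a and Hspa1b read 86.5 and 90.1 per kilobase, and HSF1 itself 121. Reads of Hspa1a and Hspa1b are uncertain, since the 2 copies are nearly identical and it is not given how reads were shared between them. Hspa1l (3.77), Dnajb13 (3.87) and Hspb7 (8.33) lay at the bottom of the range. The 81 genes took 0.946% to 1.18% of all normalised counts in a library.

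**Figure D1:**
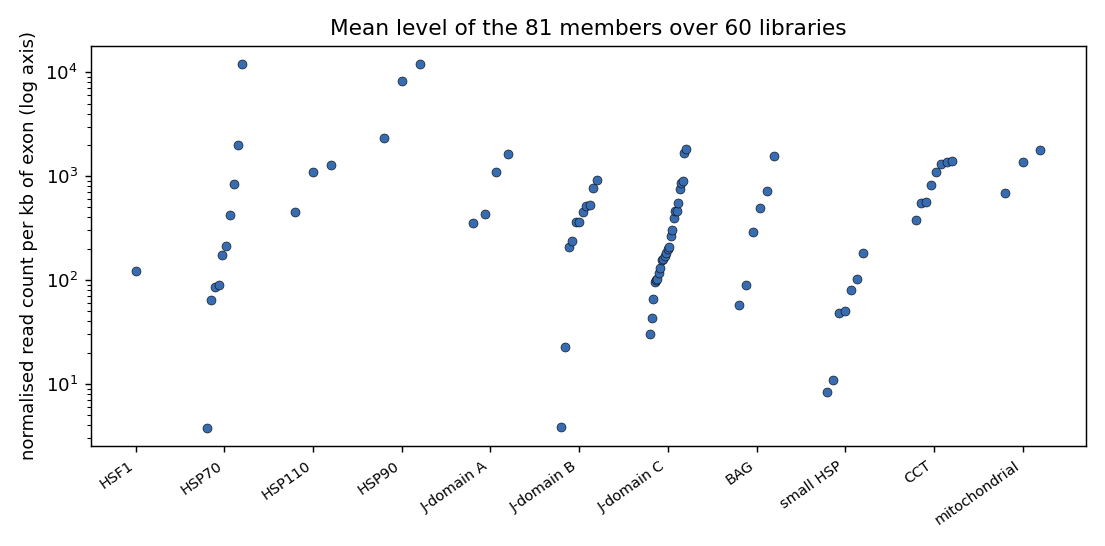
Mean normalised read count per kilobase of exon for each of the 81 genes (points, log axis) over 60 libraries, grouped by role on the horizontal axis. Hsp90ab1 (11999) and Hspa8 (11970) lie at the top, and Hspa1l (3.77) at the bottom.

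No member was called between genotypes in the absence of a drug. Under vehicle, Het against WT gave no call (limma, Benjamini-Hochberg adjusted p under 0.05 over 17807 genes) among the 81 genes in males or females, nor in the average of both sexes. Over all genes 0.0168%, 0.0225% and 0.0562% were called in those comparisons. At an unadjusted p under 0.05 there were 7 of the 81 in males, 1 in females and 3 in the average, against 8.22%, 6.45% and 7.79% of all genes. The smallest adjusted p among the 81 was 0.372 in males and 0.602 in females. Under lithium, Het against WT also gave none, against 0.00562% of all genes in males and 0.0168% in females, with 1 and 2 of the 81 at an unadjusted p under 0.05 against 3.16% and 4.89% of all genes.

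Fluoxetine gave its largest number of called members in Het mice. In Het males 28 of the 81 genes were called against vehicle, 23 higher and 5 lower (6 higher and 7 lower after rescaling every library to the same total), and in Het females 16 were, 12 higher and 4 lower. The Het males thus had 34.6% of the 81 genes called, beside 22.7% of all genes, and the Het females 19.8% beside 15.1%. Higher calls made up 28.4% of the 81 in males and 14.8% in females, where the share over all genes was 12% and 7.08%. Lower calls made up 6.17% and 4.94%, where all genes gave 10.7% and 8.04%. After rescaling, higher calls in Het males made up 7.41% of the 81 beside 6.22% of all genes, and lower calls 8.64% beside 15.7%, so the higher share was then near that of all genes. For the females the rescaled shares were 12.3% beside 5.91% higher and 4.94% beside 8.5% lower. The median log2 fold change of the 81 genes was 0.09 in each sex of the Het mice, with medians over all genes of -0.0005 and 0.0085. Most changes were small, and the largest rise among the called genes of either sex was 0.41 on the log2 scale. The 81 genes varied less within groups than most genes: the median residual SD on the log2 scale was 0.108, against 0.169 over all genes. The part of this smaller spread in the share of calls was not tested.

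In WT mice the same drug called 0 of the 81 genes in males, where 1.34% of all genes were called, and 2 in females, where 2.5% were. At an unadjusted p under 0.05, 6 of the 81 were counted in WT males against 11.1% of all genes. In WT females 14 of the 81 were counted, 12 higher and 2 lower, against 17% of all genes in both directions together. Both genes called in WT females, Dnajb5 and Dnajc1, were lower. Log2 fold changes lay above 0 for 56.8% of the 81 in WT males and 69.1% in WT females, beside 51.1% of all genes in each. In Het males the share was 70.4% beside 49.9%, and in Het females 72.8% beside 51.5%. The difference between genotypes was tested directly as an interaction. It was called for 2 of the 81 genes in males (0.927% of all genes) and for 0 in females (0% of all genes). At an unadjusted p under 0.05 the male interaction counted 21 of the 81 (25.9%), 18 of them higher, against 17.3% of all genes. The female interaction counted 6 (7.41%), against 13.2%. Both shares of all genes hold the 2 directions together. Apart from those 2 called genes, a difference between genotypes was not shown for any single gene at the adjusted threshold.

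**Figure D2:**
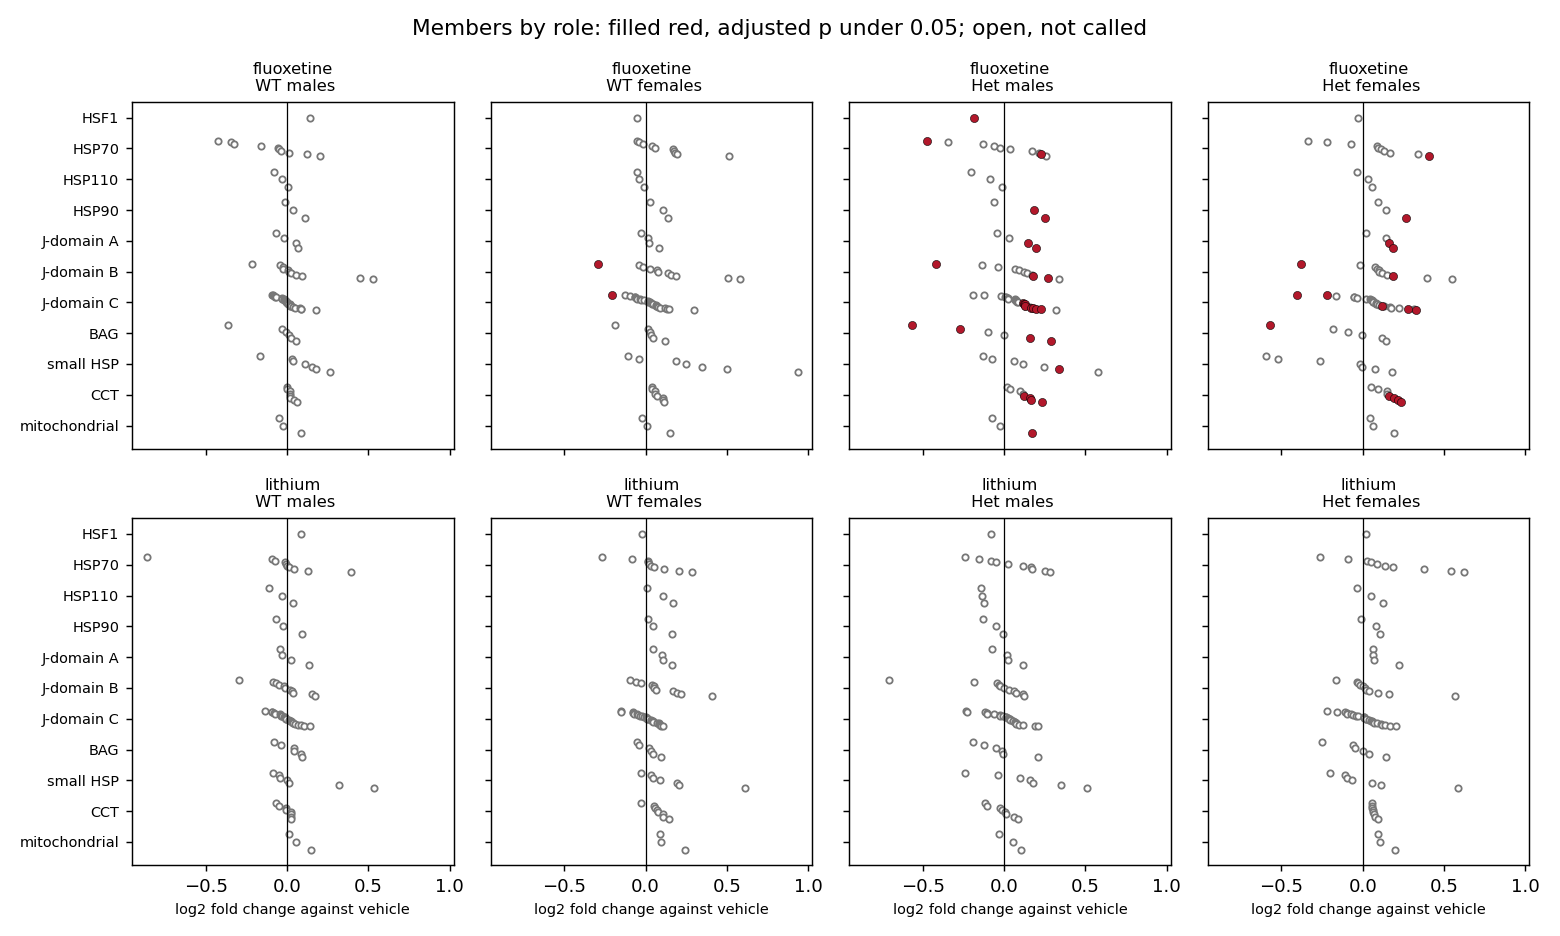
Log2 fold change against vehicle (horizontal axis) of each of the 81 genes, grouped by role (vertical axis), for fluoxetine in the upper row and lithium in the lower row, for each genotype and sex. Filled points passed an adjusted p under 0.05: with fluoxetine 28 genes of Het males, 16 of Het females, 2 of WT females and 0 of WT males, and with lithium none.

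Dnajb5 (chr4:42949814-42959425, plus strand, GRCm38), a class B J-domain cochaperone of HSP70, had the smallest p of the 81 genes in WT females and Het males with fluoxetine. Under vehicle its normalised counts were 5062, 5341, 5174, 5883 and 5825 in the 5 WT males, and with fluoxetine 5069, 4843, 4650, 4723 and 4221. In WT females they were 5164, 5086, 5613, 6171 and 6106 under vehicle and 4902, 4883, 4364, 4600 and 4236 with fluoxetine. The female groups did not overlap, and the male groups overlapped only at their edge. The Het vehicle males read 5897, 5863, 6101, 5320 and 5843, and the Het fluoxetine males 4792, 4664, 3752, 4408 and 4110. Het vehicle females read 5091, 5506, 5830, 6024 and 6370, and Het fluoxetine females 4955, 5128, 3890, 4376 and 3853. Every fluoxetine library of the Het males lay below every vehicle library, and the Het female groups shared a narrow overlap.

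The log2 fold change of Dnajb5 in males was -0.21 ± 0.07 (SE) for WT (adjusted p = 0.15) and -0.42 ± 0.07 for Het mice (adjusted p = 7.09e-05). In females it was -0.29 ± 0.07 for WT (adjusted p = 0.018) and -0.38 ± 0.07 for Het mice (adjusted p = 0.000278). Averaged over the sexes it fell by 0.25 in WT (adjusted p = 0.000615) and by 0.40 in Het mice (adjusted p = 5.83e-08). The Het minus WT difference was -0.21 in males (adjusted p = 0.282) and -0.09 in females (adjusted p = 0.731), so the fall was not shown to differ between genotypes. Without the 16 libraries richest in olfactory bulb markers, the change was -0.47 in males and -0.46 in females of the Het genotype, both still called. In WT females it was -0.20 without them and no longer called (adjusted p = 0.286). The WT female call was also lost when fluoxetine replicate 5, vehicle replicate 4 or vehicle replicate 5 was left out, with an adjusted p of up to 0.0814.

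Dnajb5 was at its highest under lithium. There it read 6746, 5841, 6188, 6374 and 5580 in WT males and 6675, 6884, 6587, 6279 and 6261 in WT females. The Het males read 6521, 6711, 6154, 6017 and 6047 with lithium, and the Het females 6567, 7003, 5696, 5858 and 5659. No lithium library overlapped a fluoxetine library of its own genotype and sex. The WT average over both sexes rose by 0.20 against vehicle (adjusted p = 0.0234), and the Het average was 0.10 above vehicle (adjusted p = 0.187, not called). The WT call was lost when any of 5 libraries was left out: male lithium replicates 1 and 4, male vehicle replicate 1, female lithium replicate 2 or female vehicle replicate 2 (adjusted p up to 0.0555). Set directly against each other, the fluoxetine minus lithium difference was -0.45 ± 0.05 in WT mice (adjusted p = 9.85e-09) and -0.51 ± 0.05 in Het mice (adjusted p = 1.11e-10).

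**Figure D3:**
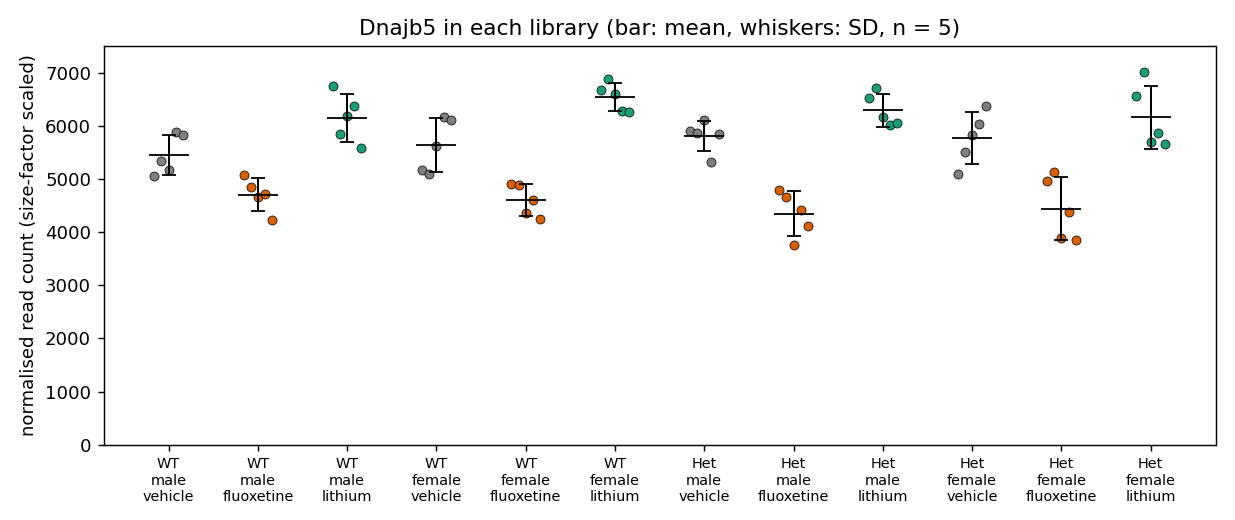
Normalised read count of Dnajb5 (vertical axis) in each of the 60 libraries (points), with group mean and SD (bar and whiskers, n = 5), by genotype, sex and treatment. The 20 fluoxetine libraries lie between 3752 and 5128 and the 20 lithium libraries between 5580 and 7003.

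Among the nucleotide exchange factors, BAG proteins moved in both directions with fluoxetine in Het mice. Bag3 (chr7:128523616-128546981, plus strand), which pairs with the small heat shock protein HSPB8 to send damaged proteins to autophagy, fell in both sexes. Its normalised counts were 255, 164, 147, 173 and 152 in Het vehicle males and 130, 97.9, 94.9, 142 and 129 in Het fluoxetine males. Het vehicle females read 173, 150, 205, 186 and 143, and Het fluoxetine females 151, 141, 85.6, 106 and 99.8. The male groups did not overlap and the female groups did, at 143 against 151. The log2 fold changes were -0.57 ± 0.17 in males (adjusted p = 0.0151) and -0.57 ± 0.17 in females (adjusted p = 0.0206). The male change was -0.43 and not called without the highest vehicle library, replicate 1 at 255 (adjusted p = 0.0879). That call was also lost without fluoxetine replicate 3, and the female call without fluoxetine replicate 3 or 5 or vehicle replicate 3 or 4 (adjusted p up to 0.0815). Without the 16 olfactory libraries Bag3 was -0.31 in males (adjusted p = 0.443) and -0.86 in females (adjusted p = 0.00833). In WT males with fluoxetine Bag3 was -0.36 and not called (adjusted p = 0.418), with all 5 fluoxetine libraries below the vehicle mean. The difference between genotypes was not called for Bag3 in either sex, so its fall was not shown to be particular to Het mice.

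Bag2, an inhibitor of the ubiquitin ligase CHIP, fell by 0.27 in Het males (adjusted p = 0.0331), while Bag5 rose by 0.29 (adjusted p = 0.00315) and Bag4 by 0.16 (adjusted p = 0.0176). No BAG gene other than Bag3 was called in Het females. Of the HSP110 exchange factors Hspa4, Hspa4l and Hsph1, none was called with either drug.

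Of the 3 HSP90 genes, 2 rose with fluoxetine in Het males and 1 in Het females, beside 12% and 7.08% of all genes called higher. Hsp90ab1 (chr17:45567775-45573271, minus strand), the constitutive cytosolic HSP90, read 33283, 36043, 39201, 31195 and 33022 in Het vehicle males and 38951, 38641, 45285, 43799 and 38712 with fluoxetine. In Het females it read 29401, 36981, 27173, 29702 and 36595 under vehicle and 36616, 41281, 36638, 37418 and 38635 with fluoxetine. In each sex only the upper end of the vehicle group (39201 in males, 36981 in females) reached the fluoxetine range. The changes were 0.25 ± 0.07 in males (adjusted p = 0.00782) and 0.26 ± 0.07 in females (adjusted p = 0.0079). The female call was lost without vehicle replicate 3 (0.21, adjusted p = 0.0615). Hsp90aa1, its stress-inducible partner, rose by 0.18 in Het males (adjusted p = 0.00984). Hsp90b1 of the endoplasmic reticulum was not called in either sex.

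Of the 8 subunits of the chaperonin CCT, 4 were called higher with fluoxetine in Het males, 4 in Het females and none lower. Higher calls over all genes were 12% in Het males and 7.08% in Het females. All 8 subunits were above 0 in females under every scaling tried. In males 8 were above 0 as deposited, 7 after quantile normalization, 6 after rescaling to the same total and 5 without the olfactory libraries. The CCT medians were 0.12 in males and 0.15 in females. Cct2 (chr10:117051001-117063814, minus strand) had the smallest p of the group. It read 3358, 3194, 3768, 3296 and 3455 in Het vehicle males and 4052, 3870, 4242, 3938 and 3975 with fluoxetine. Het vehicle females read 3404, 3578, 3012, 3226 and 3464, and Het fluoxetine females 3601, 4215, 3867, 3932 and 4034. In both sexes every fluoxetine library lay above every vehicle library. The changes were 0.24 ± 0.04 in each sex (adjusted p = 0.000219 in males and 0.000278 in females). Cct8 rose by 0.16 in males and 0.19 in females, and Tcp1 by 0.12 and 0.22. Cct7 rose by 0.17 in males and Cct6a by 0.16 in females.

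J-domain proteins, 40 of the 81 genes and thus the largest role, held the most calls. Of 25 class C genes, 8 rose and none fell in Het males, and 3 rose and 2 fell in Het females. Over all genes, 12% were called higher and 10.7% lower in Het males, and 7.08% and 8.04% in Het females. In Het males the synaptic Dnajc5 and Dnajc6 rose by 0.13 (adjusted p = 0.0107) and 0.18 (adjusted p = 0.0075), as did Dnajc10, a disulfide reductase of the endoplasmic reticulum, by 0.23 (adjusted p = 0.0007). Dnajc8, a spliceosome-associated protein, rose by 0.20 in the males and 0.28 in the females, and Dnajc27 by 0.12 in each. Dnajc9, a histone cochaperone, rose by 0.33 in Het females (adjusted p = 0.0247), while Dnajc21, which acts in ribosome assembly, fell by 0.41 (adjusted p = 0.0307). Dnajc1, an endoplasmic reticulum J-domain protein, fell in females of both genotypes, by 0.22 in Het (adjusted p = 0.0119) and by 0.21 in WT mice (adjusted p = 0.0489). The WT call of Dnajc1 held in 1 of 10 leave-one-out fits, the one without fluoxetine replicate 2. Dnajb6, known to suppress polyglutamine aggregation, rose by 0.27 in Het males (adjusted p = 0.000593) and 0.19 in Het females (adjusted p = 0.0178). Dnaja2, a cytosolic class A protein, rose by 0.19 in each sex. Dnaja1 rose by 0.16 in Het females.

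None of the classical stress-inducible genes Hspa1a, Hspa1b, Hspb1, Hsph1 and Dnajb1 was called higher with fluoxetine in a single sex. Hsp90aa1, also stress-inducible and not in this list, was called higher in Het males. Hspa1a fell in Het males, by 0.47 (adjusted p = 0.0302), and its near-identical copy Hspa1b was not called in either sex. In WT males Hspa1a was -0.34 and not called (adjusted p = 0.415). Hspb1, Hsph1, Dnajb1, Hspa5 and Hspa8 were not called in any drug comparison of 1 sex. Of the small heat shock proteins, Hspb8 rose by 0.34 in Het males (adjusted p = 0.0484). Of the HSP70 family, Hspa2 rose by 0.41 in Het females (adjusted p = 0.014), where its groups did not overlap. Among the mitochondrial chaperones Hspa9 rose by 0.17 in Het males (adjusted p = 0.00204), and Hspd1 and Hspe1, which share the heat shock element printed above, were not called with fluoxetine. Hspe1 was 0.19 above vehicle in Het females, where its groups did not overlap (adjusted p = 0.0541).

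With the sexes averaged, fluoxetine called 32 of the 81 genes in Het mice, 27 higher and 5 lower, beside 32.9% of all genes (16.9% higher and 16% lower). The 5 lower genes were Dnajb5, Bag3, Bag2, Dnajc1 and Hsf1. Cct2 (0.24, adjusted p = 1.49e-07), Dnaja2 (0.19, adjusted p = 4.32e-06), Cct8 (0.17, adjusted p = 1.08e-05), Dnajb6 (0.23, adjusted p = 1.54e-05) and Tcp1 (0.17, adjusted p = 1.96e-05) had the smallest p among the higher ones. In WT mice the average called 4 of the 81 genes, beside 8.2% of all genes. These were Dnajb5 (lower) and the higher Dnajb3 (0.52, adjusted p = 0.0125), Dnajc17 (0.24, adjusted p = 0.037) and Dnajc30 (0.11, adjusted p = 0.044). The call held in 20 of 20 leave-one-out fits for Dnajb3, in 10 for Dnajc17 and in 8 for Dnajc30. Dnajb3 is a low gene, with a median of 23.5 normalised counts.

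The count in Het males moved with the scaling and with the libraries that entered the fit. With only the 10 libraries of the comparison in the fit, 3 of the 81 genes were called, beside 3.41% of all genes. Rescaling every library to the same total left 13 of the 81 genes called, 6 higher and 7 lower, in place of 23 and 5. It moved the median over all genes to -0.06 in that comparison. Under it, Cct2, Dnaja2, Dnajb6, Dnajc10, Bag5 and Hsp90ab1 stayed called higher in Het males, and Cct7, Cct8, Hspa9, Dnajc6 and Hspa14 lost their call without changing sign. Leaving out the 16 libraries that scored highest for the olfactory bulb, which was decided once the values were known, left 2 vehicle and 3 fluoxetine Het males and 3 vehicle and 2 fluoxetine Het females. On those, Dnajb5 alone was called in males (1.23% of the 81, beside 1.65% of all genes), and 15 genes in females (18.5% beside 12.4%). The summed olfactory bulb markers ran from 5405 to 42155 in Het vehicle males and from 3325 to 20485 in Het fluoxetine males, with 1 of the 14 markers called, lower. In Het females 8 of 10 myelin markers were higher with fluoxetine (median log2 fold change 1.15). Their sum ran from 34234 to 163263 under vehicle and from 116336 to 209217 with fluoxetine. Fewer libraries and less olfactory tissue cannot be told apart in the reduced fit, and the part these tissue differences had in the chaperone changes was not tested.

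Hsf1 and Hspa14 were the 2 genes whose fluoxetine response differed between genotypes. Hsf1 (chr15:76477422-76501913, plus strand) read 795, 796, 835, 831 and 859 normalised counts in WT vehicle males and 945, 868, 907, 955 and 876 in WT fluoxetine males. In Het males it read 848, 917, 907, 871 and 909 under vehicle and 833, 790, 734, 790 and 760 with fluoxetine. The fluoxetine libraries lay above the vehicle libraries in WT males and below them in Het males, with no overlap in either genotype. The change was -0.19 ± 0.05 in Het males (adjusted p = 0.00339) and 0.14 in WT males, which was not called (adjusted p = 0.136). The Het minus WT difference was -0.33 ± 0.07 (adjusted p = 0.0168). In females, where the same test gave no call, the log2 fold change of Hsf1 was -0.05 for WT and -0.03 for Het mice. Each leave-one-out fit kept the male Hsf1 call (adjusted p up to 0.0499), and it was lost with only the 4 groups compared in the fit (adjusted p = 0.101). Without the 16 olfactory libraries the Hsf1 difference was -0.34 and not called (adjusted p = 0.353).

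Hspa14 (chr2:3488850-3512814, minus strand), an HSP70 relative that sits on ribosomes with DNAJC2, moved in the opposite sense. It read 769, 720, 740, 655 and 708 in WT vehicle males and 635, 686, 590, 656 and 647 in WT fluoxetine males. Het vehicle males read 649, 664, 663, 599 and 743, and Het fluoxetine males 742, 754, 908, 683 and 798. Both pairs of groups overlapped. The change in Het males was 0.22 ± 0.06 (adjusted p = 0.00906), and the Het minus WT difference was 0.38 ± 0.09 (adjusted p = 0.0306). That difference was called in 10 of 20 leave-one-out fits. It was lost without Het fluoxetine replicate 3, the library at 908 (adjusted p = 0.0924), and without Het vehicle replicate 1, 2 or 4, WT fluoxetine replicate 1, 3 or 4, or WT vehicle replicate 1, 2 or 3. It was 0.34 after rescaling to the same total (adjusted p = 0.0608) and 0.30 without the olfactory libraries (adjusted p = 0.538), neither called. The next members by p in the male interaction, Cct2 (0.22, adjusted p = 0.0693) and Hspa9 (0.19, adjusted p = 0.0761), missed the threshold.

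**Figure D4:**
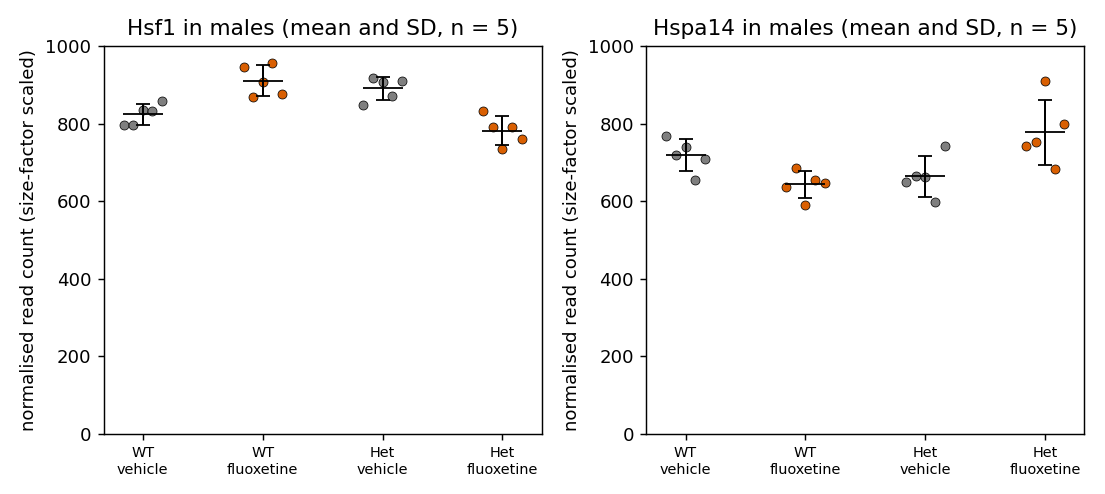
Normalised read counts of Hsf1 and Hspa14 (vertical axes) in single male libraries (points) with mean and SD (n = 5), by genotype and treatment. For Hsf1, fluoxetine libraries lie above vehicle libraries in WT males and below them in Het males.

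Compared between genotypes under fluoxetine, 5 of the 81 genes differed in males, beside 1.18% of all genes. Hspa9 (0.19, adjusted p = 0.00783), Cct2 (0.21, adjusted p = 0.00888), Hspa14 (0.27, adjusted p = 0.0205) and Cct8 (0.17, adjusted p = 0.0234) were higher in Het, and Hsf1 was lower (-0.22, adjusted p = 0.00935). Without WT fluoxetine male replicate 1 the calls of Cct2 and Hsf1 were lost (adjusted p = 0.055 and 0.0511), and 1 of the 81 genes remained called. In females 0 of the 81 differed, beside 0.0393% of all genes, and 8 were at an unadjusted p under 0.05, against 11.9% of all genes.

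Lithium called none of the 81 genes in any of the 4 sex and genotype comparisons. Over all genes it called 0.0786% in males and 0.118% in females of the WT, and 2.0% in males and 0.629% in females of the Het genotype. At an unadjusted p under 0.05 there were 8 WT male and 12 WT female members, against 9.09% and 11.3% of all genes. For Het mice there were 13 in males and 9 in females, against 19.6% and 13.8%. These shares of all genes hold both directions together, and their split by direction is not given here. All 12 members in WT females and all 9 in Het females were higher. In males 6 were higher and 2 lower for WT, and 7 and 6 for Het. Log2 fold changes lay above 0 for 75.3% of the 81 in WT females and 70.4% in Het females, beside 48.9% and 49.2% of all genes. In males the shares were 49.4% for WT and 51.9% for Het, beside 48.7% and 49.4%. With the sexes averaged, 3 of the 81 were called in WT mice, all higher, beside 2.97% of all genes: Dnajb5, the mitochondrial cofactor Hspe1 (0.20, adjusted p = 0.0197) and Dnajc14 (0.10, adjusted p = 0.0421). The Hspe1 call was lost without WT lithium male replicate 4 (adjusted p = 0.0532), and the Dnajc14 call held in 8 of 20 leave-one-out fits. In Het mice the average called 1, Hspa9 (0.10, adjusted p = 0.0203), beside 9.14% of all genes. That call was lost without Het lithium female replicate 1 or Het vehicle male replicate 4 (adjusted p up to 0.0537) and with only the groups compared in the fit (adjusted p = 0.0743). The Het minus WT difference in the lithium effect was called for none of the 81 genes and for 0% of all genes in either sex, with 3 and 0 of the 81 at an unadjusted p under 0.05, against 3.87% and 2.17% of all genes.

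Fluoxetine set against lithium, with the sexes averaged, called 3 of the 81 genes in WT mice, beside 7.74% of all genes, and 28 in Het mice, beside 25% of all genes. In WT mice these were Dnajb5, lower, and Dnajc17 (0.27, adjusted p = 0.0179) and Dnajc27 (0.09, adjusted p = 0.0398), higher. In Het mice 23 were higher under fluoxetine, led by Tcp1 (0.19, adjusted p = 3.03e-06), Dnajc27 (0.17, adjusted p = 1.17e-05) and Cct2 (0.18, adjusted p = 2.18e-05). The lower 5 were Dnajb5, Dnajc1, Bag1, Bag3 and Hspa1b. Each drug's comparison with vehicle uses the same vehicle libraries, so those values are set side by side here and not compared further.

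Calls among other genes of the pathway with fluoxetine in Het mice are given by list. All genes had 12% higher and 10.7% lower in the males, and 7.08% and 8.04% in the females, and the lists are small. Of 10 HSP70 exchange factors and related cochaperones, 4 rose in males and 3 in females and none fell. They included Grpel1, the exchange factor of mitochondrial HSP70 (0.25 in males, 0.17 in females), and the import receptor Tomm70a (0.22 and 0.13). Of 19 HSP90 cochaperones, 2 rose and 3 fell in males and 4 rose in females. Fkbp5, a glucocorticoid-induced cochaperone of steroid receptors, rose by 1.04 in males (adjusted p = 4.18e-05) and 0.90 in females (adjusted p = 0.000288). Sugt1 rose by 0.20 and 0.22. Ahsa2, a relative of the HSP90 activator Ahsa1, fell by 0.52 in males (adjusted p = 0.000151), and Chordc1 by 0.25 (adjusted p = 0.0373).

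Of 11 genes of mitochondrial protein quality control, 4 rose in Het males and 2 in the females, led by the protease subunit Clpx (0.28 and 0.30). Among 22 endoplasmic reticulum stress genes, 1 rose and 3 fell in Het males, and 2 rose and 1 fell in Het females, which for both directions together is no larger a share than the 22.7% and 15.1% of all genes. The stress regulator Atf4 fell by 0.33 in males and the sensor Ern1 by 0.26 in males and 0.27 in females. Of the 9 tested prefoldin and chaperonin helpers, 1 fell in males (Pdcl, -0.23) and 1 rose in females (Vbp1, 0.26). Of the 6 partners of HSF1, 1 fell in males and none was called in females. Of the 4 tested crystallins and collagen chaperones, 1 rose in males (Clu, 0.31) and 1 fell (Serpinh1, -0.86). Of 14 glucocorticoid-responsive genes, 9 rose and 1 fell in Het males and 5 rose and 1 fell in Het females. Of 16 immediate early genes, 11 fell in each of the 4 fluoxetine comparisons, those of WT mice included. In WT mice 194 of all 17807 genes were called lower with fluoxetine in males and 338 in females.

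The 81 genes also varied from library to library inside groups, and some of them varied together. Taken as deviations from the 12 group means on the log2 scale, Hsph1 and Hspa4, both HSP110 proteins, had a Pearson r of 0.94 over 60 libraries (Spearman 0.92). Hspa8 followed Hsph1 at 0.83 and Hsp90b1 at 0.81. Hsp90aa1 ran with its J-domain partner Dnaja1 (0.85), and Hspa5 with Hsp90b1 (0.85) and the J-domain protein Dnajb11 of the same compartment (0.82). Dnajb5 ran with Dnajb11 (0.80). The divergent pair Hspd1 and Hspe1 gave 0.53. The inducible Hspa1b passed 0.5 only with its copy Hspa1a (0.69). Points share library, depth and scaling, so these values are descriptions.

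Hsph1 (chr5:149614287-149636376, minus strand), chosen here after its values were seen, ran against the cold-inducible RNA-binding protein genes Cirbp (r = -0.91, Spearman -0.85) and Rbm3 (r = -0.82, Spearman -0.77). Both are known to be induced when cells cool. Without the 2 libraries farthest from the Hsph1 median, the values were -0.87 and -0.78, and in the 44 libraries with lower olfactory bulb scores -0.93 and -0.84. Hsph1 lay at the low end of the 81 genes. Their median r was -0.04 with Cirbp (range -0.91 to 0.75) and 0.01 with Rbm3 (range -0.82 to 0.72). As a set the 81 genes thus did not run against either gene. The library farthest below its group in Hsph1 was Het fluoxetine male replicate 3, at 5114 normalised counts, and the other 4 of its group read 8862, 9316, 7088 and 6578. That library read 3165 for Cirbp, the highest of its group, where the median was 1755. Cirbp and Rbm3 were both called higher in Het males with fluoxetine (0.58, adjusted p = 0.021, and 0.44, adjusted p = 0.0107) and in no other comparison of a drug with vehicle in 1 sex. Without Het fluoxetine male replicate 3 the changes were 0.37 (adjusted p = 0.166) and 0.36 (adjusted p = 0.0633), neither called, and the Cirbp call was also lost without Het vehicle male replicate 2 (0.48, adjusted p = 0.0803). Leaving out Het fluoxetine male replicate 3 reduced the calls among the 81 genes in Het males from 28 to 17, and leaving out Het vehicle male replicate 1 reduced them to 18. In Het females, leaving out Het vehicle female replicate 3 or 4 reduced 16 calls to 6 or 8. Calls over all genes in these fits are not given here, so the falls are not shown to be particular to the 81 genes.

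**Figure D5:**
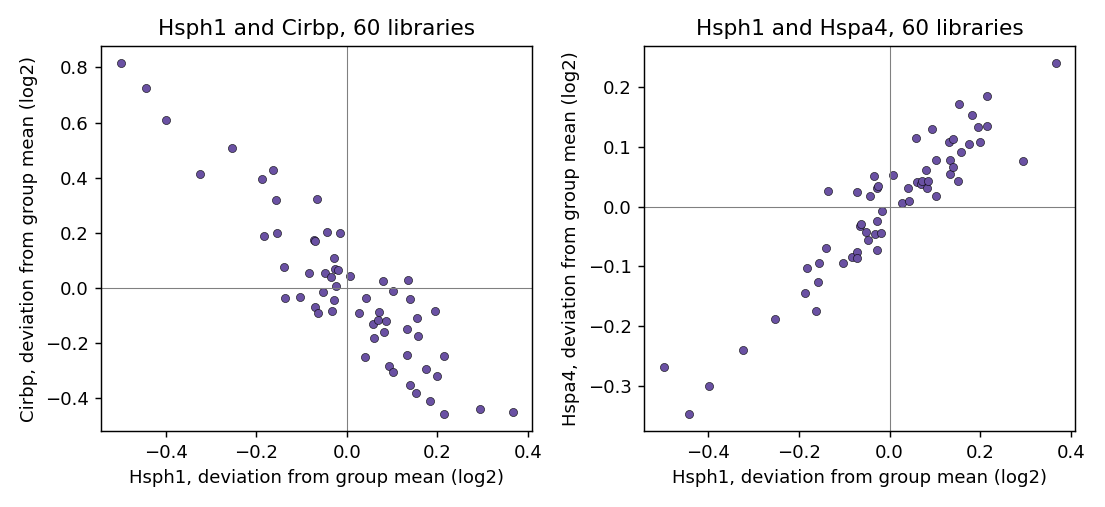
Deviation of Cirbp (left) and Hspa4 (right) from the group mean against that of Hsph1, in log2 units, one point per library (60). Cirbp falls as Hsph1 rises (r = -0.91), and Hspa4 rises with it (r = 0.94).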

How the data were processed

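RNA of prefrontal cortex was measured in 60 libraries, 5 per group. The deposited values are a signal, per the values themselves: each column steps in whole multiples of its smallest value (100% of values whole at a tolerance of 0.001), so the authors' values are reads divided by 1 size factor per library. Per the submitters' processing notes, GRCm38, R 3.6.0, DESeq2 1.19.11 and Salmon 0.11.2 were used, in roles that the notes used here do not give, and the annotation is not given in the sources used here. No count test was run. Recovered reads ran from about 24050000 to 31650000 per library. Members with means near 10, such as Hspa1l, Hspb2 and Dnajb13, carry more counting error than the abundant ones.

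Values were taken to log2(value + 1), the scale of all fold changes, which understates changes of low genes. Genes at 10 or more in at least 5 libraries were kept (17807). limma 3.58.1 in R 4.3.3 fitted all 60 libraries in 1 model of 12 group means, with the variance prior following the mean level. Tests were two-sided and p-values were Benjamini-Hochberg adjusted over all 17807 genes within each of 25 comparisons, with calls at an adjusted p under 0.05. The fit was tested on simulated data with independent noise and changes larger than most of those reported here. That test does not cover small changes or genes that vary together. Symbols came from the reference gene table (18077 of 18088 rows named). Exon lengths came from GENCODE M21, and promoters from RefSeq on GRCm38.p6. The members, gene lists and tests were chosen with earlier results of these data known. Named genes were 23 core members, up to 12 higher and 12 lower called members per comparison, up to 6 members per interaction and up to 4 genes per pathway list. Hspb9, Dnajc22, Dnajb7 and Dnajb8 match by name but are not rows of the table analysed. The alternatives were quantile normalization, rescaling to the same total, a pseudocount of 10, no filter, fitting only the groups compared, a replicate block, and leaving out each library. Leaving out the 16 libraries richest in olfactory bulb markers was chosen after seeing the data. Figures were drawn with matplotlib 3.10.9.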

Additional observations from a re-analysis of the deposited data

Results flagged for a closer look

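In groups of 5 libraries, a value was singled out where its gap to the nearest other was more than 0.71 of the range of the group, which chance alone reaches in about 1 in 20 groups. Over 7 members and 84 groups this found 7 values. Bag3 stood at 255 in Het vehicle male replicate 1, with the other 4 between 147 and 173. Cct2 was low in WT vehicle female replicate 5 (3232, others 3415 to 3482) and in WT vehicle male replicate 5 (3349, others 3438 to 3475). Hsp90ab1 was high in Het lithium male replicate 4 (36793, others 33430 to 34040) and low in WT lithium female replicate 3 (31325, others 36478 to 37987). Hspa14 was high in Het vehicle female replicate 5 (813, others 719 to 745) and in WT lithium male replicate 2 (722, others 654 to 672).

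The fluoxetine effect differed between genotypes in males for Hsf1, by -0.33 on the log2 scale (adjusted p = 0.0168, limma interaction), and for Hspa14, by 0.38 (adjusted p = 0.0306). In Hsf1 all 5 fluoxetine libraries lay above all 5 vehicle libraries in WT males and below them in Het males.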

How the results depend on the processing

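Among 53 pairs of a called member and a comparison (up to 12 members in each direction, Het fluoxetine averages not included), no alternative turned a direction. A replicate block, a pseudocount of 10 and no filter on low values kept the call in 53 of 53 pairs. Quantile normalization kept it in 46, rescaling to the same total in 40, and fitting only the groups compared in 16. The library left out with the worst effect kept it in 24, and leaving out the 16 libraries that scored highest for the olfactory bulb in 22. A test on recovered reads was planned and not run, because 9 columns could not be accepted as recovered counts. Replicate numbers were not shown to pair the samples. No comparison had all same-number correlations over 0.1, and 18 of 60 libraries correlated best with their own number. Lithium against vehicle in Het males had 4 such correlations over 0.1, so this check cannot exclude a partial pairing. The replicate block called 18 members in Het females against 16.

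Counts of called members moved as follows with fluoxetine against vehicle. WT females went from 2 to 1 with quantile normalization, 1 with only the groups compared and 0 without the olfactory libraries. Het males went from 28 to 13 with rescaling, 3 with only the groups compared and 1 without the olfactory libraries, and Het females from 16 to 4 with only the groups compared. The WT average went from 4 to 2 with rescaling and 1 without the olfactory libraries. For Het against WT under fluoxetine, males went from 5 to 0 with only the groups compared. The male interaction with fluoxetine went from 2 to 1 with rescaling, 0 with only the groups compared and 0 without the olfactory libraries. Fluoxetine against lithium went in WT from 3 to 5 with quantile normalization, and in Het from 28 to 18 without the olfactory libraries. With only the groups compared, the lithium averages went from 3 to 6 in WT and from 1 to 0 in Het mice. Lithium in Het females went from 0 to 5 without the olfactory libraries. Apart from some fluoxetine fits of Het mice described above, the share of all genes called under these settings is not given here. Where that share is missing, the lithium counts included, a move is not shown to be particular to the members. Fewer libraries enter the fits of only the groups compared and those without the olfactory libraries, and for the other settings the cause was not tested.

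Leaving out each library in turn gave 0 to 2 members in WT females with fluoxetine, 17 to 27 in Het males, 6 to 20 in Het females, 2 to 5 in the WT average and 29 to 37 in the Het average. For lithium it gave 0 to 2 in Het males, 0 to 1 in Het females, 1 to 5 in the WT average and 0 to 6 in the Het average. For Het against WT under fluoxetine in males it gave 1 to 9, for the male interaction 1 to 7, and for fluoxetine against lithium 2 to 4 in WT and 21 to 30 in Het mice. The share of all genes called in these leave-one-out fits is not given here.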
